A study of Neurospora crassa OR74A with 15 samples.

Results

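The genes of glycogen and trehalose metabolism were followed through a carbon source transfer of the filamentous fungus Neurospora crassa. The 8 genes, of 9733 gene loci measured, were chosen by identifier for their known roles: glycogenin (gnn, NCU06698), glycogen synthase (gsy-1, also called gsn, NCU06687), the branching enzyme (NCU05429), the debranching enzyme (NCU00743), glycogen phosphorylase (NCU07027), 2 genes of trehalose synthesis (NCU00793 and NCU05041) and a trehalase (tre-1, NCU00943). All 8 were found, carried the same identifier in both kinds of deposited table, and passed the expression filter of the test. Mycelia of the wild-type strain FGSC 2489 were grown for 16 h in 2% sucrose, washed, and moved for 4 h to 1% pectin (3 libraries), 1% orange peel powder (2), 2% xylan (1), 2% Avicel, which is microcrystalline cellulose (3), medium without carbon (3) or 2% sucrose (3). All 15 libraries therefore share the strain and the growth on sucrose before the transfer, and the pectin and orange peel powder doses were lower than those of xylan, Avicel and sucrose.

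Glycogen and trehalose are the main carbohydrate reserves of fungal mycelia. Glycogenin primes a glucose chain, glycogen synthase lengthens it and the branching enzyme adds side chains, while phosphorylase and the debranching enzyme take the polymer apart and release glucose units. Trehalose is a disaccharide made from glucose phosphates through trehalose 6-phosphate, and trehalases split it into glucose. In yeasts and filamentous fungi these reserves are built up and spent as carbon supply changes, and much of their control acts on the enzymes themselves, which transcript levels do not show.

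Levels are given in FPKM, which corrects read numbers for the length of a transcript and the size of its library. The libraries still differed in scale, which every comparison with sucrose carries. Over all genes the deposited FPKM summed to 5272945 to 7102823 in the sucrose libraries and 3555456 to 5172025 in the others. The median FPKM was 70.9 to 78.4 in the sucrose libraries and 81.6 to 92.7 in the others. The pectin, orange peel powder and xylan libraries belong to this study, whereas the Avicel, no carbon and sucrose libraries were taken over from an earlier study. Between these sets, the effect of the medium and that of the study a library came from cannot be told apart. Among the 9 earlier libraries, the depth implied by the deposited coverage was 60.4 megabases for Avicel replicate 1 and 61.9 for sucrose replicate 1, against 209 to 1052 in the other 7. These 2 shallow libraries stood apart from their groups for several members, and the results on members these libraries moved are also given without both of them. A gene counts as called where limma gave a Benjamini-Hochberg adjusted p below 0.05 over 8700 genes and a log2 fold change, on the log2(FPKM + 1) scale, of at least 1 in size. In RNA from whole mycelia, fewer cells of a type and less RNA per cell cannot be told apart. Transcripts of 7 genes used here as markers of conidia and aerial hyphae were followed as well. Whether these transcripts came from such cells was not tested, so their level is not a measure of conidia. The summed level of the 7 genes was 16031 to 41881 FPKM on pectin, 15168 to 25759 on orange peel powder and 26093 on xylan. It was 92981 to 158459 FPKM on Avicel and 345572 to 384162 when carbon was absent. The 3 libraries from sucrose had sums of 528 to 1776 FPKM, and con-13 was listed at 0 in all 3 and con-10 in 2 of them. In the xylan library con-13 was at 0 as well. Most of each sum came from ccg-1 and eas, so it does not weigh the 7 markers evenly. Alone, ccg-1 was at 12876 to 32776 FPKM on pectin, 13520 to 23667 on orange peel powder and 24537 on xylan. It was at 52427 to 138708 FPKM on Avicel, 171706 to 301939 without carbon and 328 to 1411 on sucrose. Of the 7 markers, 6 on pectin, 6 on orange peel powder, 7 on Avicel and 7 without carbon were called as higher than on sucrose, and 6 on pectin, 6 on orange peel powder and 1 on Avicel as lower than without carbon. They were also lower than on Avicel in 3 cases on pectin and 4 on orange peel powder. Their part in the results on the 8 genes was not tested.

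Of the genes that break reserves down, phosphorylase and tre-1 had lower transcript levels on sucrose than in any other medium. On sucrose phosphorylase still exceeded 67.1 to 95.9% of all genes in a library, while tre-1 exceeded 24.5 to 28.9%. Glycogen phosphorylase (NCU07027, contig 10.4, positions 4959089 to 4962195) was the most abundant of the 8 on every medium but sucrose. Its level was 4999, 5833 and 5246 FPKM on pectin, 3786 and 5945 on orange peel powder, and 3030 in the xylan library. It was 6734, 5538 and 4953 FPKM on Avicel, 4188, 5336 and 5672 without carbon, and 1935, 379 and 177 on sucrose. Each of the other 12 libraries lay above all 3 sucrose libraries, and the pectin, orange peel powder, Avicel and no carbon groups overlapped one another.

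Arithmetic means of phosphorylase FPKM were 6.46-fold (pectin), 5.86-fold (orange peel powder), 6.92-fold (Avicel) and 6.10-fold (no carbon) those on sucrose. The fit compares means of log2 values, and its differences correspond to 10.5-fold, 9.35-fold, 11.2-fold and 9.90-fold, in the same order. Sucrose replicate 1, the highest of its group, weighs more in the arithmetic mean. The log2 fold changes were 3.40 ± 0.62 for pectin, 3.22 ± 0.69 for orange peel powder, 3.49 ± 0.62 for Avicel and 3.31 ± 0.62 for no carbon (SE; limma adjusted p of 0.000597, 0.00212, 0.000340 and 0.000476). These 4 comparisons share the sucrose libraries. The sucrose libraries differed widely: without sucrose replicate 1 the 4 log2 fold changes were 4.19 to 4.45, and without sucrose replicate 3 they were 2.47 to 2.73, all still called. With only orange peel powder and sucrose in the fit, the orange peel powder call was lost (adjusted p = 0.0566). Among the starved and polysaccharide-fed groups phosphorylase was not called in any of the 6 comparisons, with log2 fold changes of -0.26 to 0.18 (SE of 0.62 to 0.69; adjusted p from 0.837 to 0.986). Phosphorylase averaged 4865 ± 1527 FPKM on orange peel powder (SD, n = 2) and 5065 ± 778 FPKM without carbon (SD, n = 3). Between these groups 6 of the 7 conidial markers were lower on orange peel powder, and a link to phosphorylase was not tested.

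The trehalase gene tre-1 (NCU00943, contig 10.1, positions 6632519 to 6635173) had the widest range of the members. It was at 208, 323 and 205 FPKM on pectin, 220 and 203 on orange peel powder, 1521 in the xylan library, 111, 363 and 398 on Avicel, and 336, 348 and 419 without carbon. On sucrose it was at 3.04, 11.1 and 10.5 FPKM. No library of another medium came near the sucrose values, and Avicel replicate 1 lay well under the other Avicel libraries.

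Mean tre-1 levels were 29.9-fold (pectin), 25.8-fold (orange peel powder), 35.4-fold (Avicel) and 44.8-fold (no carbon) those on sucrose. The log2 fold changes were 4.87 ± 0.49 for pectin, 4.69 ± 0.54 for orange peel powder, 4.94 ± 0.49 for Avicel and 5.48 ± 0.49 for no carbon (SE; limma adjusted p of 4.63e-06, 2.10e-05, 2.57e-06 and 9.97e-07). Without Avicel replicate 1 the Avicel value was 5.53, and without both shallow libraries the values were 4.35 for pectin, 4.17 for orange peel powder, 5.02 for Avicel and 4.96 for no carbon, all called. The authors give sucrose replicate 1 bounds of 0 to 6.52 FPKM, and replicates 2 and 3 bounds of 4.42 to 17.7 and 4.03 to 17.0. The width of such bounds followed from the FPKM value alone, whatever the depth of the library. They therefore do not show how precisely the sucrose level is known. Among pectin, orange peel powder, Avicel and no carbon, tre-1 was not called in any of the 6 comparisons (adjusted p from 0.288 to 0.981). Without the shallow libraries its log2 fold change was -0.61 for pectin and -0.79 for orange peel powder against no carbon, and -0.66 for pectin and -0.84 for orange peel powder against Avicel (adjusted p of 0.0125, 0.00639, 0.0173 and 0.00936), short of the fold threshold. Of the 7 conidial markers, 6 on pectin, 6 on orange peel powder, 7 on Avicel and 7 without carbon were called as higher than on sucrose, the exception on both pectin and orange peel powder being fl. The single xylan library had the highest tre-1 level of all and a conidial marker sum of 26093 FPKM. A link between tre-1 and these markers was not tested.

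A second trehalase gene, tre-2 (NCU04221), which is not among the 8, did not share this pattern. It averaged 366 ± 35.1 FPKM on pectin (SD, n = 3), 453 ± 14.8 on orange peel powder (n = 2), 455 ± 55.2 on Avicel (n = 3), 495 ± 23.7 without carbon (n = 3) and 484 ± 142 on sucrose (n = 3), and was 295 in the xylan library. It was not called in any of the 10 comparisons, with log2 fold changes against sucrose of -0.36 to 0.07. Within a library, tre-1 had 0.284 to 0.901 times the tre-2 level on pectin, orange peel powder, Avicel and no carbon. The ratio was 5.15 in the xylan library and 0.00480 to 0.0300 on sucrose. The main trehalase transcript was thus tre-1 in the xylan library and tre-2 in the other 14.

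**Figure D1:**
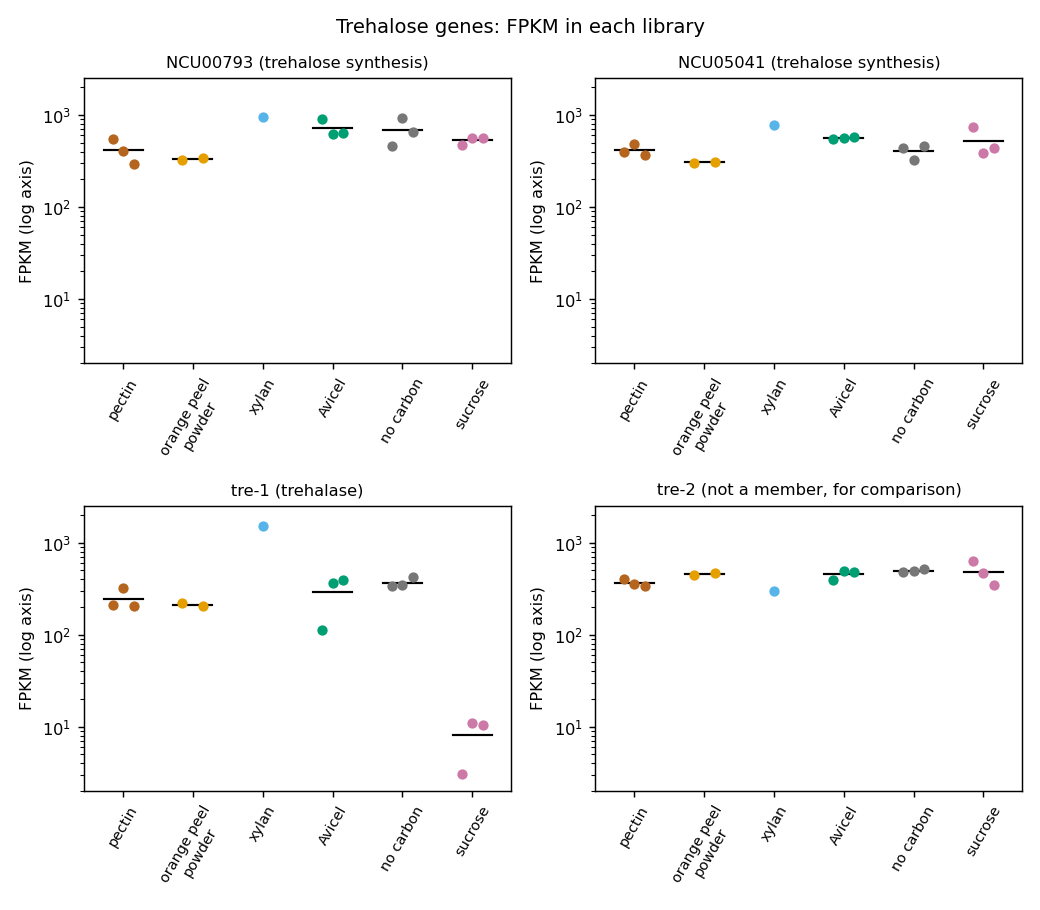
FPKM on a log axis in each library of NCU00793, NCU05041, tre-1 and the second trehalase gene tre-2, by carbon source; points are libraries and black lines group means. tre-1 lies between 3.04 and 11.1 FPKM on sucrose and at 1521 FPKM in the single xylan library, while tre-2 stays between 295 and 632 FPKM in all 15.

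Of the 3 genes that build glycogen, none was called without carbon against sucrose, where 52.3% of all genes were called in either direction. Synthase and glycogenin had a limma adjusted p below 0.05 in it and missed only the fold threshold. Without the shallow libraries glycogenin no longer passed. Glycogen synthase (gsy-1, contig 10.5, positions 4278792 to 4282036) was at 2435, 2009 and 2833 FPKM on pectin, 1445 and 1658 on orange peel powder and 1341 in the xylan library. It was at 1875, 2006 and 1947 FPKM on Avicel, 1038, 1035 and 1406 without carbon, and 2038, 1937 and 1912 on sucrose. All 3 starved libraries were lower than every library of another replicated group. On pectin synthase rose by 2.09-fold over no carbon, with a log2 fold change of 1.06 ± 0.17 (SE; limma adjusted p = 0.000537). This fold change lay at the threshold of 1, and the call was lost without pectin replicate 3, no carbon replicate 1 or no carbon replicate 2 (log2 fold changes of 0.95, 0.99 and 0.99) and under quantile normalization (0.68), each still with an adjusted p below 0.05. Against no carbon, Avicel gave 0.76 ± 0.17 (adjusted p = 0.0120) and orange peel powder 0.43 ± 0.18 (adjusted p = 0.0941). No carbon against sucrose gave -0.77 ± 0.17 (adjusted p = 0.00121), beyond the spread but short of the fold threshold.

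Glycogenin (gnn, contig 10.5, positions 4316605 to 4319667) lies 34.6 kb from gsy-1, with 9 other loci between them. It was at 845, 1035 and 742 FPKM on pectin, 418 and 526 on orange peel powder, 1073 in the xylan library, 691, 707 and 613 on Avicel, 697, 565 and 873 without carbon, and 1474, 929 and 942 on sucrose. Orange peel powder was the lowest group and sucrose the highest. Glycogenin fell on orange peel powder relative to sucrose, with a log2 fold change of -1.21 ± 0.24 (SE; limma adjusted p = 0.00129). Without sucrose replicate 1, the highest library, the value was -0.99 and the call was lost on the fold threshold. Against sucrose, Avicel and no carbon gave -0.70 ± 0.22 and -0.63 ± 0.22 (adjusted p of 0.0134 and 0.02), short of that threshold. Without both shallow libraries they were -0.51 for Avicel and -0.42 for no carbon, with adjusted p of 0.0594 and 0.0795, and so no longer passed. The 2 genes act in succession, but their proportion changed between media: the glycogenin level was 0.262 to 0.515 times that of synthase on pectin, 0.289 to 0.317 on orange peel powder, 0.8 in the xylan library, 0.315 to 0.369 on Avicel, 0.546 to 0.671 without carbon and 0.480 to 0.723 on sucrose. The no carbon and sucrose groups overlapped in this proportion, and both lay above orange peel powder and Avicel.

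The branching enzyme gene (NCU05429, contig 10.2, positions 1607771 to 1611047) was at 1730, 1486 and 1693 FPKM on pectin, 677 and 870 on orange peel powder, 1029 in the xylan library, 919, 1373 and 1366 on Avicel, 1692, 1424 and 2053 without carbon, and 1637, 1373 and 1300 on sucrose. Both orange peel powder libraries lay below all 13 others. The gene fell on orange peel powder relative to no carbon by 1.15 on the log2 scale (SE 0.22; limma adjusted p = 0.00272). Without orange peel powder replicate 1 that call was lost (-0.97, adjusted p = 0.0526). Relative to pectin, from the same study, the value was -1.09 ± 0.22 with an adjusted p of 0.0766. That comparison passed when the groups were fitted alone (adjusted p = 0.0184) or without Avicel replicate 1 and sucrose replicate 1 (adjusted p = 0.00823), neither of which enters the difference itself. Relative to sucrose it was -0.90 ± 0.22 (adjusted p = 0.00493), and relative to Avicel -0.64 ± 0.22 (adjusted p = 0.0591). Without the shallow libraries, in which Avicel replicate 1 is the lowest of its group, these were -0.80 relative to sucrose and -0.83 relative to Avicel (adjusted p of 0.00289 and 0.00474).

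The branching enzyme was the one member with more than 1 annotated transcript in the tables of the earlier study, where NCU05429T0 starts at position 1607771 and NCU05429T1 at 1607941 of the contig. The transcript T1 made up 56.2 to 61.1% of the locus on Avicel, 59.1 to 68.0% without carbon and 45.3, 74.4 and 70.4% in the 3 sucrose libraries. T1 was the more abundant transcript in 8 of these 9 libraries, the exception being the shallow sucrose replicate 1. The 3 groups overlapped in this share, and the tables for pectin, orange peel powder and xylan give the locus as a whole.

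The debranching enzyme gene (NCU00743, contig 10.1, positions 7352160 to 7357325) was the steadiest member. It was at 628, 515 and 595 FPKM on pectin, 551 and 631 on orange peel powder, 732 in the xylan library, 725, 600 and 579 on Avicel, 373, 527 and 618 without carbon, and 894, 479 and 442 on sucrose. No group stood apart, and the highest of the 5 replicated group means was 1.25-fold the lowest. Its largest log2 fold change in the 10 comparisons was 0.35 ± 0.26, for Avicel against no carbon (adjusted p = 0.434). Without the shallow libraries, which held its highest Avicel and sucrose values, that value was 0.25 (adjusted p = 0.417) and the largest was 0.36, for Avicel against sucrose (adjusted p = 0.149). The debranching enzyme and phosphorylase work on the same polymer, yet only phosphorylase was called against sucrose.

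**Figure D2:**
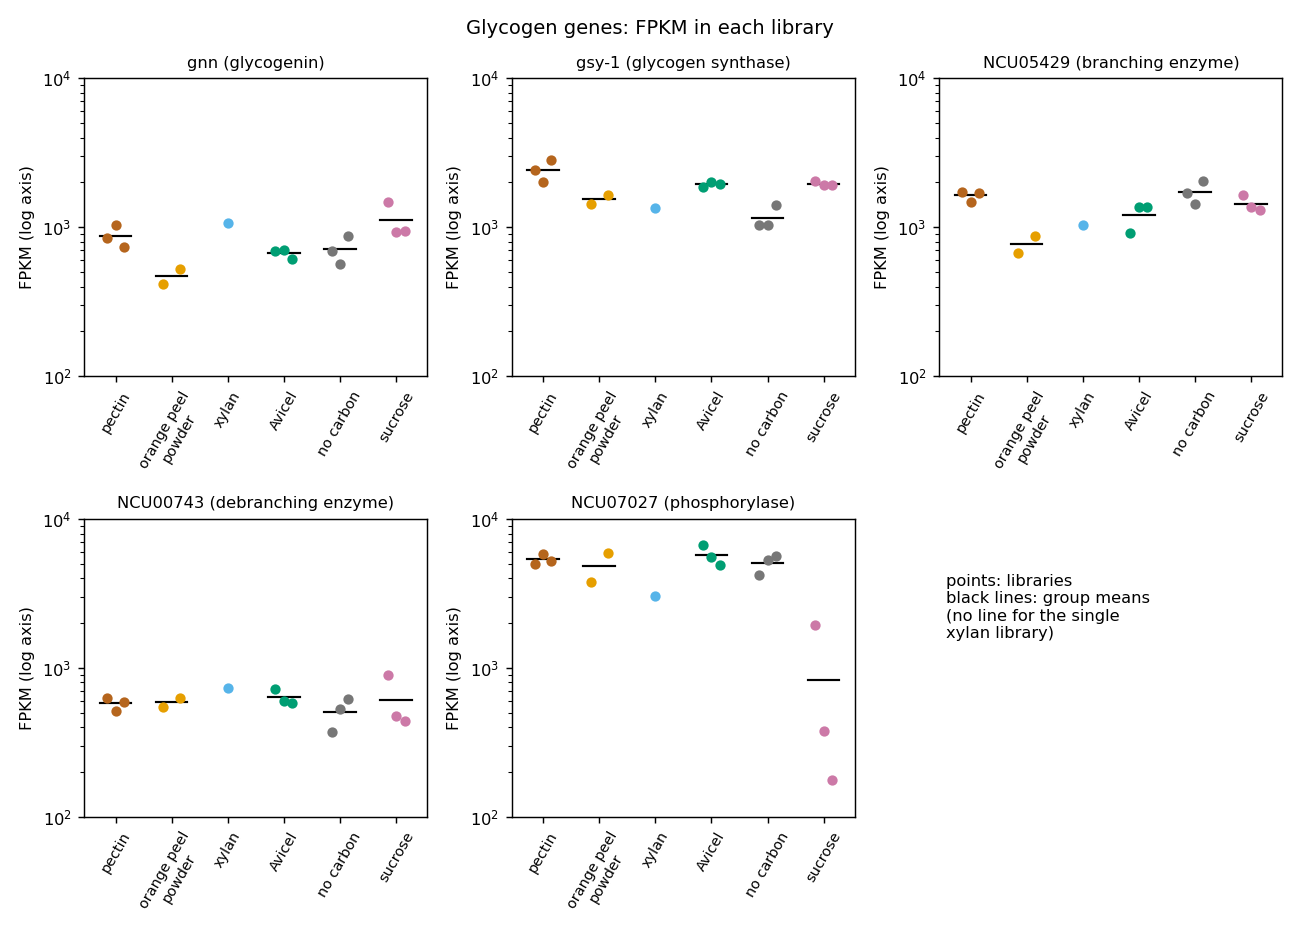
FPKM on a log axis in each library of the 5 glycogen genes, by carbon source; points are libraries and black lines group means. Phosphorylase is at 177 to 1935 FPKM on sucrose and at 3030 to 6734 elsewhere, while the other 4 genes stay within 373 to 2833 FPKM in all libraries.

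Set side by side within each library, the synthase and phosphorylase transcripts changed order on sucrose. The FPKM of synthase was 0.344 to 0.540 times that of phosphorylase on pectin, 0.279 to 0.382 on orange peel powder, 0.443 in the xylan library, 0.278 to 0.393 on Avicel and 0.194 to 0.248 without carbon. On sucrose it was 1.05, 5.12 and 10.8 times. The 3 no carbon libraries had the lowest ratios of all 15 and the 3 sucrose libraries the highest. In sucrose replicate 1 the 2 transcripts were nearly level, so the size of the excess on sucrose rests on replicates 2 and 3. Phosphorylase made up 42.4 to 56.7% of the summed FPKM of the 8 genes on pectin, orange peel powder, Avicel and no carbon, 29.0% in the xylan library, and 21.0, 6.25 and 3.06% in the sucrose libraries.

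**Figure D3:**
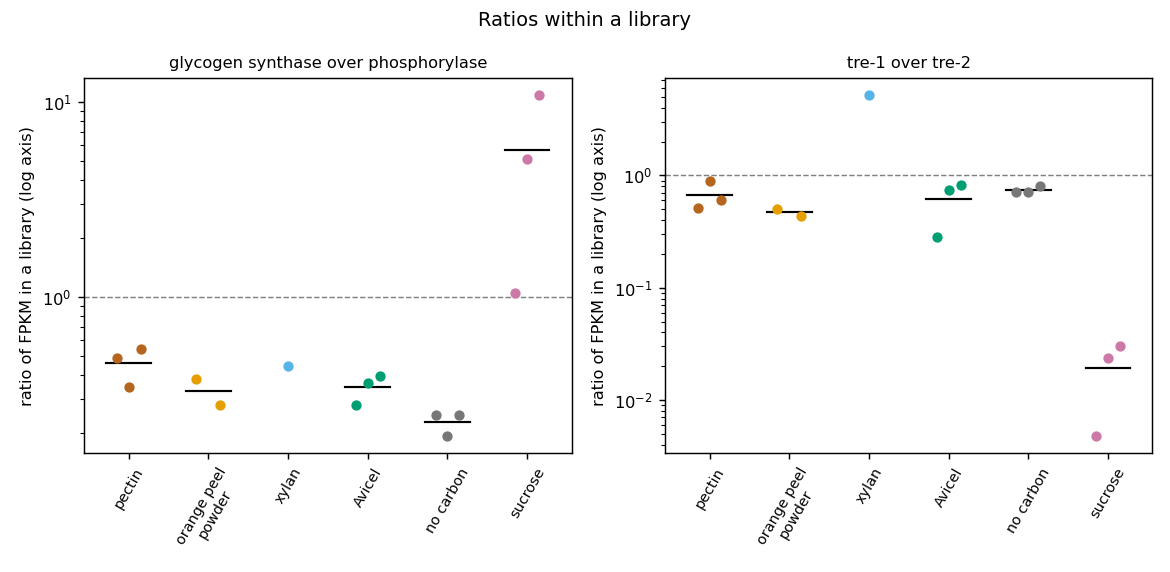
Ratio of FPKM within each library, on a log axis, of glycogen synthase to phosphorylase (left) and of tre-1 to tre-2 (right), by carbon source; points are libraries, black lines group means and the dashed line a ratio of 1. Synthase exceeds phosphorylase in the 3 sucrose libraries (1.05 to 10.8) and in no other, and tre-1 exceeds tre-2 in the xylan library alone (5.15).

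The 2 trehalose synthesis genes varied less than the trehalase. NCU00793 (contig 10.1, positions 7151166 to 7155148) was at 550, 408 and 297 FPKM on pectin, 323 and 343 on orange peel powder, 953 in the xylan library, 898, 624 and 637 on Avicel, 460, 925 and 654 without carbon, and 475, 559 and 559 on sucrose. Pectin and orange peel powder lay below Avicel with no overlap. On orange peel powder NCU00793 fell relative to Avicel by 1.09 on the log2 scale (SE 0.30; limma adjusted p = 0.0230), and this call was lost without either orange peel powder library (adjusted p of 0.158 and 0.0992) or without Avicel replicate 1 (log2 fold change -0.92). Against no carbon the value was -0.97 ± 0.30 for orange peel powder (adjusted p = 0.0277), which just missed the fold threshold and was called, at -1.01 and -1.09, under upper-quartile and quantile scaling. On pectin it was -0.69 ± 0.27 against no carbon (adjusted p = 0.0639) and -0.80 ± 0.27 against Avicel (adjusted p = 0.0412), the second being -0.63 without the shallow libraries (adjusted p = 0.0929). Pectin and orange peel powder come from another study than Avicel and no carbon in each of these comparisons.

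NCU05041 (contig 10.6, positions 3957178 to 3960799) was at 395, 483 and 372 FPKM on pectin, 299 and 311 on orange peel powder, 783 in the xylan library, 544, 559 and 570 on Avicel, 435, 322 and 465 without carbon, and 739, 385 and 440 on sucrose. Orange peel powder was again lowest, below all other libraries, and no comparison was called. The nearest were orange peel powder against Avicel at -0.87 ± 0.25 (adjusted p = 0.0277) and against sucrose at -0.71 ± 0.25 (adjusted p = 0.0293). Without the shallow libraries, in which sucrose replicate 1 is the highest of its group, the value against Avicel was -0.88 (adjusted p = 0.00384) and that against sucrose was -0.43 and no longer passed (adjusted p = 0.0612). The ratio of NCU00793 to NCU05041 lay between 0.643 and 2.87 over the 15 libraries. Neither synthesis gene followed tre-1 on sucrose: NCU00793 averaged 680 ± 233 FPKM without carbon and 531 ± 48.2 on sucrose, and NCU05041 averaged 407 ± 75.3 without carbon and 521 ± 190 on sucrose (SD, n = 3 each).

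The xylan library was the single library of its medium, so its differences have no replicate check and no test. In it the 3 trehalose genes reached their highest level of all 15 libraries. How many of all genes did so was not counted. tre-1, at 1521 FPKM (authors' bounds 1443 to 1599), was 6.20-fold the pectin mean, 7.19-fold the orange peel powder mean, 5.23-fold the Avicel mean, 4.13-fold the no carbon mean and 185-fold the sucrose mean. The next highest library for tre-1, no carbon replicate 3, had 419 FPKM. For NCU00793 (953 FPKM, bounds 892 to 1015) and NCU05041 (783 FPKM, bounds 727 to 839), the next highest libraries had 925 and 739 FPKM, within those bounds. All these bounds follow from the FPKM value alone, so they do not measure how precise a level is.

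On the glycogen side of the xylan library, phosphorylase (3030 FPKM, bounds 2920 to 3140) was below the other 11 libraries outside sucrose and above all 3 sucrose libraries, and synthase was below every pectin, orange peel powder, Avicel and sucrose library. Against pectin, from the same study, 2 of 8 genes differed by a log2 difference of at least 1, tre-1 (2.66) and NCU00793 (1.23). Of all genes, 24% did so. Against orange peel powder they were 4 of 8 (tre-1, NCU05041, NCU00793 and glycogenin), where 25.2% of all genes did, and against sucrose 2 of 8 (tre-1 and phosphorylase), where 34.5% did. Against Avicel and no carbon it was tre-1 alone, where 33.6% and 39.8% of all genes did. Taken with its sign, the difference of tre-1 from pectin was larger than that of 99.1% of all genes tested.

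Counted as a list, few of the 8 genes were called in any comparison. On pectin 2 of 8 were higher than on sucrose, where 26.6% of all genes were called as higher and 40.8% in either direction. On orange peel powder 2 were higher and 1 was lower than on sucrose, where 25.4% of all genes were higher, 14.8% lower and 40.2% either. On Avicel 2 were higher than on sucrose (30.3% of all genes higher, 48.6% either), and without carbon 2 were (34.2% higher, 52.3% either). Each of these shares of the 8 is under or near that of all genes.

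Against no carbon, 1 of 8 was higher on pectin (10.4% of all genes higher, 21.2% either), 1 was lower on orange peel powder (10.7% lower, 21.1% either) and 0 were called on Avicel (6.37% either). Between the polymers, 1 was lower on orange peel powder than on Avicel (6.33% of all genes lower, 14.4% either). The count was 0 for pectin against Avicel (15.9% of all genes) and for orange peel powder against pectin (0.31%). For these comparisons with a count of 0, an unadjusted limma p below 0.05 was found for 2 of the 8 in Avicel against no carbon (24.9% of all genes), 2 in pectin against Avicel (39% of all genes) and 3 in orange peel powder against pectin (10.2% of all genes). The first of these shares is that of all genes and the second is below it.

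The median log2 fold change without carbon against sucrose was 0.02 over the 8 genes and 0.38 over all 8700, and the median size of the change was 0.47 over the 8 genes and 1.18 over all. Orange peel powder gave the lowest medians, -0.50 against sucrose and -0.49 against no carbon, where all genes had medians of 0.21 and -0.14. Upper-quartile scaling raised the comparisons with sucrose by 0.19 to 0.25 on the log2 scale. Quantile normalization lowered them. It put the all-gene median against sucrose at -0.05 for no carbon, -0.07 for Avicel, -0.18 for pectin and -0.18 for orange peel powder. The sign of the all-gene median against sucrose thus depended on the scaling.

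**Figure D4:**
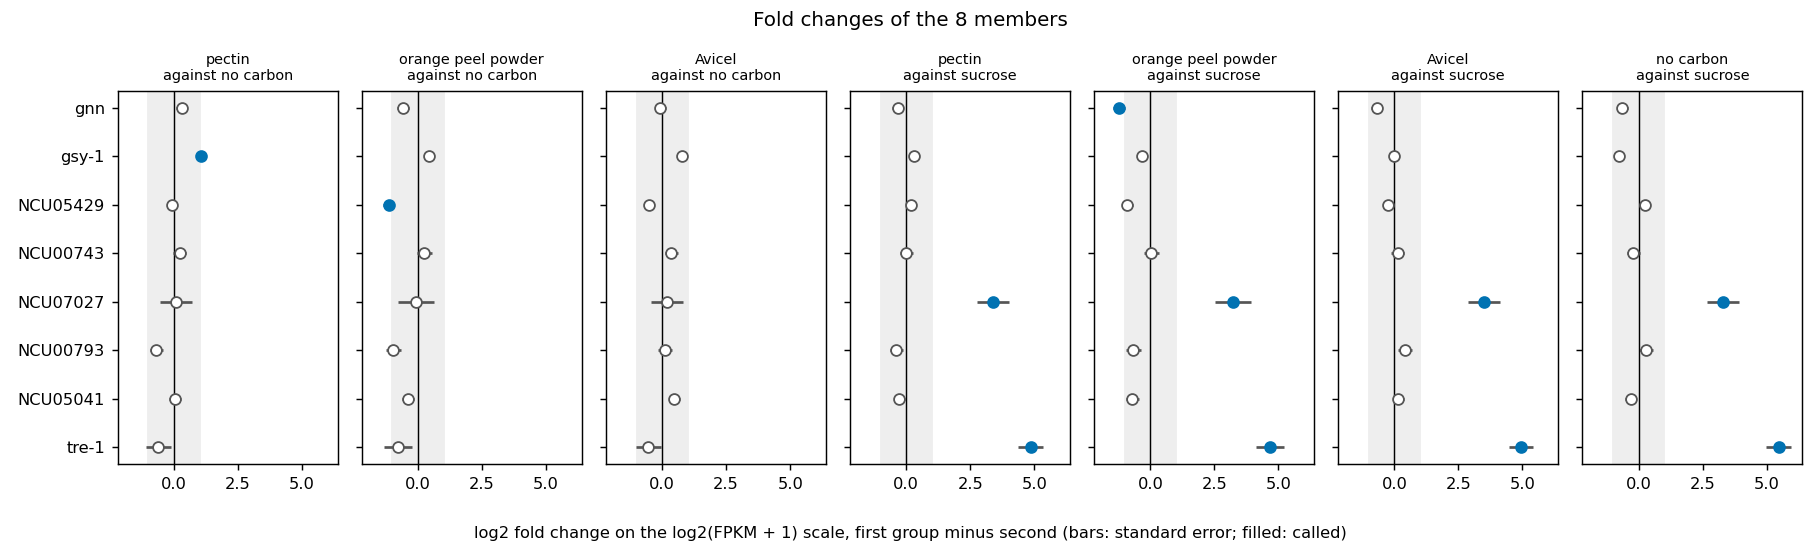
Log2 fold changes of the 8 genes (rows) on the log2(FPKM + 1) scale in 7 comparisons with no carbon or sucrose; bars are standard errors, filled points are called and the grey band spans -1 to 1. Phosphorylase (NCU07027) and tre-1 lie between 3.22 and 5.48 in the 4 comparisons with sucrose, while the other 6 genes stay between -1.21 and 1.06 throughout.

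The order of the 5 replicated group means was settled by the test at few places. Of 32 pairs of groups next to each other in the order of a gene, 2 were called: for phosphorylase orange peel powder over sucrose, and for tre-1 orange peel powder over sucrose. In each the sucrose group came last. For glycogenin the order was sucrose, pectin, no carbon, Avicel and orange peel powder. For synthase it was pectin, sucrose, Avicel, orange peel powder and no carbon, and for the branching enzyme no carbon, pectin, sucrose, Avicel and orange peel powder. No neighbours in these 3 orders, or in those of the debranching enzyme and of both trehalose synthesis genes, were called. Orange peel powder was lowest for glycogenin, the branching enzyme and both trehalose synthesis genes. Called neighbours and lowest groups were not counted over all genes. Whether the members differ from other genes in these counts was therefore not tested.

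Further genes of the pathway were taken from a list of which 8 were found: tre-2, ccg-9, emp-1, gpi-1 and 4 loci without a symbol. The names tps-1a and tps-2 had no match. Of these 8, ccg-9 (NCU09559), which encodes a clock-controlled trehalose synthase, was higher than on sucrose in all 4 other replicated groups, with log2 fold changes of 3.12 ± 1.03 on pectin, 4.38 ± 1.15 on orange peel powder, 4.57 ± 1.03 on Avicel and 4.07 ± 1.03 without carbon (SE; adjusted p of 0.0210, 0.00704, 0.00189 and 0.00373). Its libraries scattered: 59.7, 166 and 66.3 FPKM on pectin, 215 and 204 on orange peel powder, 1030, 159 and 83.2 on Avicel, 109, 281 and 157 without carbon, and 55.6, 4.33 and 2.44 on sucrose. Both the highest Avicel and the highest sucrose value are those of the 2 shallow libraries, and without these the log2 fold changes were 4.36 to 5.62, all called. NCU00575 was lower without carbon than on sucrose (820 ± 133 and 2251 ± 89.7 FPKM, SD, n = 3 each) and higher on Avicel than without carbon (log2 fold change 1.37 ± 0.28, adjusted p = 0.00803; 0.99 and not called without the shallow libraries). The glucose phosphate isomerase gene gpi-1 and emp-1 were called in none of the 10 comparisons.

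For each member the genes with the most similar pattern were taken from 1058 other genes with a symbol. These had passed a higher filter on mean FPKM than that of the fit. Likeness was Pearson's r of log2(FPKM + 1) over the 15 libraries, as a description. The most similar were acd-3, dak-1 and cat-2 for phosphorylase (r of 0.955, 0.950 and 0.932), and gh31-3, gla-2 and nop-1 for tre-1 (0.947, 0.930 and 0.924). For both members the sucrose libraries lie apart, which any gene low on sucrose shares. Between phosphorylase and tre-1 themselves r was 0.72 over the 15 libraries and -0.68 over the 12 outside sucrose. Of these 12, the single xylan library had the lowest phosphorylase (3030 FPKM) and the highest tre-1 (1521 FPKM). The shallow Avicel replicate 1 had the highest phosphorylase (6734 FPKM) and the lowest tre-1 (111 FPKM). The value without them was not computed, so -0.68 does not show an inverse relation among the rest. For glycogenin the most similar genes were led by the catalase gene cat-3 (0.917) and the superoxide dismutase gene sod-1 (0.895). For the branching enzyme they were led by vma-5 (0.895), a subunit of the vacuolar ATPase. Synthase (gnb-1, 0.761), NCU00793 (vad-2, 0.794), NCU05041 (stk-9, 0.792) and the debranching enzyme (hsp98, 0.616) had no closer match. The authors' deposited table of clusters, computed from pooled values of the same media, put NCU00793, NCU05041 and tre-1 in the same cluster, number 4, with 355 entries. Over the 15 libraries r was 0.47 between NCU00793 and NCU05041, and 0.18 and -0.04 between each of these and tre-1. Over the 12 libraries outside sucrose the values were 0.60, 0.40 and 0.59, in the same order. The single xylan library was the highest for each of these genes. The authors' clusters held phosphorylase in number 2 (660 entries), synthase in 12 (64), the debranching enzyme in 8 (37) and glycogenin in 15 (2742). The branching enzyme was listed as 2 entries, in clusters 7 and 15.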

How the data were processed

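Per the labels' protocols, poly(A) RNA was selected on oligo dT beads, broken up and reverse transcribed from random primers. The authors deposited FPKM per gene or transcript with confidence bounds, and in the earlier study's tables a coverage signal and transcript lengths (length and effective length, in bases, per the file headers). Cufflinks 0.9.3, Cuffdiff and TopHat 1.2.0 are listed in the submitters' processing notes, with no roles given. The genome build is not given in the sources used here. One more deposited table holds pooled FPKM per medium.

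Gene-level and transcript-level tables were joined by contig and position (9733 loci, 863 with different identifiers), with FPKM summed over transcripts. Starts are printed counting from 1. Symbols are from the RefSeq table of assembly NC12. FPKM are not counts, so limma 3.58.1 (R 4.3.3) was fitted to log2(FPKM + 1) of the 14 libraries of 5 replicated groups with a variance trend, keeping genes that averaged 1 FPKM or more over these. Tests are two-sided. Replicates are biological per the design text. Same-numbered Avicel and sucrose libraries deviated together from their group means (r of 0.12 to 0.18 in all 3 pairs, replicate 1 of both being shallow), as did those of pectin and orange peel powder (0.11 and 0.21, 2 pairs), so the numbers may pair samples there. In the other 8 pairs of groups some or all r were below 0.1 (-0.31 to 0.45 over all). The code was tested on simulated data. Depth limits the precision of low values, and it is unknown for the pectin, orange peel powder and xylan libraries. The 8 genes, the lists and the tests were chosen with earlier results of these data known. All 8 genes are named, each related gene with a symbol, and the 3 most similar genes with a symbol were eligible for each. Alternatives were other pseudocounts, filters, scalings, moderation, groups in the fit, joins and thresholds, a block for the replicate number, and each library left out in turn.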

Additional observations from a re-analysis of the deposited data

Results flagged for a closer look

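The xylan library entered no test. How many of all genes had their highest level in it was not counted, so whether the number among the 8 is unusual was not tested. Of the 8 genes, 3 were higher in it than in each of the 14 other libraries. These are tre-1 at 1521 FPKM, against a highest other value of 419, NCU00793 at 953 against 925, and NCU05041 at 783 against 739. For NCU00793 and NCU05041 the highest other value lies within the authors' bounds of the xylan value. Those bounds follow from the FPKM value alone and do not measure precision.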

How the results depend on the processing

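Counts of called genes among the 8 were recomputed in 28 settings. Of 1496 values of single genes, 1467 stayed on their side of the threshold, 12 calls were lost, 17 were gained and 0 reversed; 54 uncalled values changed sign. Leaving out 1 library gave 0 to 0 called genes for Avicel against no carbon, 0 to 1 for pectin against no carbon, 0 to 2 for orange peel powder against no carbon, 2 to 2 for no carbon, Avicel and pectin against sucrose, 2 to 4 for orange peel powder against sucrose, 0 to 1 for pectin against Avicel, 0 to 1 for orange peel powder against Avicel and 0 to 0 for orange peel powder against pectin. Where this left orange peel powder with 1 library, that library was assumed to vary like the other groups. By adjusted p alone the counts were 1 for Avicel, 1 for pectin and 2 for orange peel powder against no carbon, 4 for no carbon, 3 for Avicel, 2 for pectin and 5 for orange peel powder against sucrose, 1 for pectin against Avicel, 2 for orange peel powder against Avicel and 0 for orange peel powder against pectin. The share of all genes at that threshold was 9.78%, 35.7% and 31.9% against no carbon, 68.8%, 65%, 57.7% and 54.1% against sucrose, and 27.9%, 20.9% and 0.333% in the last 3, in the same order. Orange peel powder against no carbon gave 2 under upper-quartile scaling, 2 under quantile normalization and 2 with the replicate number as a block; pectin against no carbon gave 0 under quantile normalization. Without Avicel replicate 1 and sucrose replicate 1, orange peel powder gave 0 against Avicel and 1 against pectin, and 1 against pectin with only these groups in the fit. The cause was not tested. The calls of tre-1 against sucrose held in all settings.

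Counts over all genes moved more: for orange peel powder against pectin from 27 to between 4 and 187, for Avicel against no carbon from 554 to between 334 and 851, for orange peel powder against no carbon from 1838 to between 808 and 2774, for pectin against no carbon from 1848 to between 1500 and 3102, for pectin against Avicel from 1385 to between 1089 and 2424, and for orange peel powder against Avicel from 1249 to between 490 and 2069. With the replicate number as a block, the count of called members changed in no comparison other than orange peel powder against no carbon, and it was 2 for Avicel against sucrose also when only these groups were fitted with the block. That fit of Avicel and sucrose alone was added after seeing the data. Depth limits the sucrose value of tre-1. The fit of the related genes without the 2 shallow libraries was chosen after seeing the data.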
